A study of Mus musculus with 12 samples.

Results

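The genes described here encode the proteins of the cytosolic ribosome. They were taken by symbol from the protein-coding lines of the gene table (Rpl or Rps followed by a number, Rplp0 to Rplp2, and Rpsa), leaving out the Rps6k kinases and names of pseudogenes, with at least 10 counts in 3 or more libraries. The names fitted 87 genes and 85 passed the minimum, of 55487 genes in the table and 19890 tested. Rpl39l and Rpl10l did not reach it, with at most 5 and 4 counts. Of the 85, 46 encode proteins of the large subunit and 31 proteins of the small subunit. The other 8 are paralogs, retrocopies or proteins that are not subunits (Rpl3l, Rpl7l1, Rpl22l1, Rpl36al, Rps27l, Rps27rt, Rps23rg1 and Rps19bp1).

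A ribosome holds 1 copy of nearly every ribosomal protein, and unassembled copies are degraded, so cells make these proteins in matched amounts. Most of their mRNAs begin with a cytosine and a run of pyrimidines, the terminal oligopyrimidine (TOP) motif, through which the growth kinase complex mTORC1 controls their translation. The mRNAs are short, abundant and long-lived, and they have many processed pseudogenes, so reads of a gene and of its copies can be confused.

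RNA of whole mouse kidney at postnatal day 15 was sequenced in 12 libraries, 3 in each of 4 groups. Both lines are named for Hoxb7, whose promoter is used to delete genes in the ureteric bud and the collecting duct that grows from it, and kidney cells of other lineages are not its targets. Cep120 KO libraries (titled homo) carry a loss of Cep120, a centriole protein, and Pkd1 KO libraries one of Pkd1, polycystin-1. The controls of each line are titled het and have a genotype label of WT. Whether each library is its own mouse is not labelled, so p-values measure the spread between libraries. The study set out to find pathways disturbed in fibrotic and cystic kidneys without Cep120, and to set them beside those of kidneys without Pkd1.

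Libraries held 23070688 to 31837958 counts, and neither targeted gene was lower in its KO libraries (Cep120 was at 16.6 to 20.4 CPM there against 13.7 to 18.7, and Pkd1 at 23.9 to 36.4 against 13.9 to 21.6), so RNA does not check the labels. Between 30289 and 32705 genes were detected in 6 libraries (all Cep120 KO, the first pair of Cep120 controls, Pkd1 control 3), and between 23532 and 25652 in the other 6. Levels of Xist, which coats a silenced X chromosome, were 0.325 CPM or less in all Pkd1 KO libraries and in Cep120 KO 1 and 2. They were 50 CPM or more in the other 7 libraries. Absence of Xist and the KO label therefore cannot be told apart in the Pkd1 line. They are partly mixed in the Cep120 line, where KO 3 alone of the KO libraries had Xist. Cep120 controls 1 and 2 were nearer to each other than any other pair of a group, with a chi-squared per gene of 5.51 against 25.6 to 68.6. All 10 kidney-defining markers were detected in every group.

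The start sites of some members in the RefSeq promoter table (GRCm38.p6) show the motif that gives TOP mRNAs their name. Symbols matched for 65 of the 85 members. A start at C followed by pyrimidines only, for a run of at least 5 bases including the C, was annotated for 14 of the 65 (21.5%), against 3.01% of all 27025 genes of that table. The windows below run from 15 bases before the annotated start to 14 after its first base, on the coding strand, with the run in capitals, and are shown to set 6 members with the run beside 2 without it. They are from Rps6 (chr4:86857353-86857382, minus strand), Rps27 (chr3:90213634-90213663, minus), Rpl35 (chr2:39005117-39005146, minus), Rpl28 (chr7:4792950-4792979, plus), Rpl38 (chr11:114668565-114668594, plus) and Rpl14 (chr9:120571502-120571531, plus), which have the run, and from Rplp0 (chr5:115559452-115559481, plus) and Rpsa (chr9:120127751-120127780, plus), which do not.
Rps6: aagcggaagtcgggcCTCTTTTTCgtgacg
Rps27: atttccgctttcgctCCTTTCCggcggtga
Rpl35: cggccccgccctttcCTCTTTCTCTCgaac
Rpl28: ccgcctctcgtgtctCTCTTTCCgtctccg
Rpl38: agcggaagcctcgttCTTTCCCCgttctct
Rpl14: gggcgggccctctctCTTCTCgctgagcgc
Rplp0: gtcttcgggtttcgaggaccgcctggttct
Rpsa: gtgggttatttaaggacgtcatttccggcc

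The run is 9 bases in Rps6, 7 in Rps27, 11 in Rpl35, 8 in Rpl28 and Rpl38, and 6 in Rpl14. An annotated start 1 base off the true one hides the run, so its absence in other members says only that these letters are not at that base. The 13 subunit members with such a start had a median log2 fold change of 0.56 in Pkd1 KO and those without it 0.57. Rps27 and Rpl28, both with the run, had the log2 fold changes 0.95 and 0.03, and Rplp0 and Rpsa, without it, 0.92 and 0.79.

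Ribosomal protein RNA took a larger part of the library in Pkd1 KO. The 85 genes together held 5.61%, 5.78% and 5.42% of all counts in Pkd1 KO 1 to 3, against 2.999%, 3.64% and 3.48% in Pkd1 controls 1 to 3. All KO libraries were above all controls, with a mean of 5.61% ± 0.18 (SD, n = 3) against 3.38% ± 0.335, a ratio of 1.66. In Cep120 KO 1 to 3 the share was 2.87%, 2.96% and 3.04%, and in Cep120 controls 1 to 3 it was 3.37%, 3.08% and 3.43%, so these groups lay next to each other without overlap. On the length-corrected TPM scale, as deposited, the shares were 12.8% ± 0.459 in Pkd1 KO, 7.19% ± 0.642 in Pkd1 controls, 6.58% ± 0.191 in Cep120 KO and 6.97% ± 0.256 in Cep120 controls. On that scale the Cep120 groups overlapped. Counts on 317 named pseudogenes of 62 members were a further 0.573% to 0.67% of the library in Pkd1 KO and 0.337% to 0.444% in the other 3 groups.

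**Figure D1:**
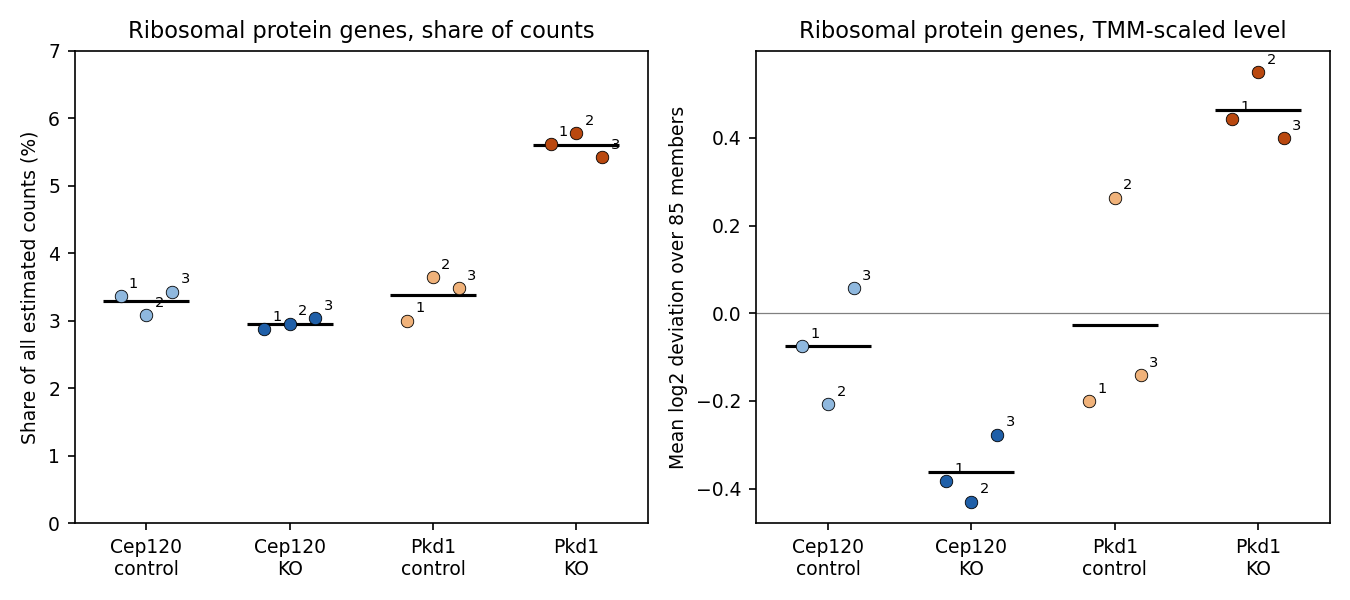
Ribosomal protein RNA in each library. Left, the share of all estimated counts on the 85 genes, and right, the mean over the genes of log2 CPM minus the gene's mean over 12 libraries. Points are libraries with their replicate number and lines are group means. The 3 Pkd1 KO libraries lie highest on both scales, and Pkd1 control 2 lies above the other controls on the right.

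Single subunit genes followed this pattern in Pkd1 KO with few exceptions. The edgeR quasi-likelihood test called 64 of the 85 members higher and 1 lower at an adjusted p (Benjamini-Hochberg, over all genes) of 0.05. Of all genes tested 44.4% were called (22.1% higher and 22.4% lower), so the members' 75.3% called higher stands beside a comparison in which calls were common. Their median log2 fold change was 0.56, against -0.04 for all genes. Every one of the 77 subunit genes had a log2 fold change above 0, as had 47.8% of all genes (52.2% were below). KO and control libraries did not overlap for 67 members that were higher and 3 that were lower, against 27.4% and 25.5% of all genes. In the large subunit 35 of 46 rose (median 0.54) and in the small subunit 28 of 31 (median 0.62). Of the 8 others Rps27rt rose and Rps23rg1 fell, and their median was -0.20. In a bulk sample more cells of a type and more RNA per cell cannot be told apart.

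**Figure D2:**
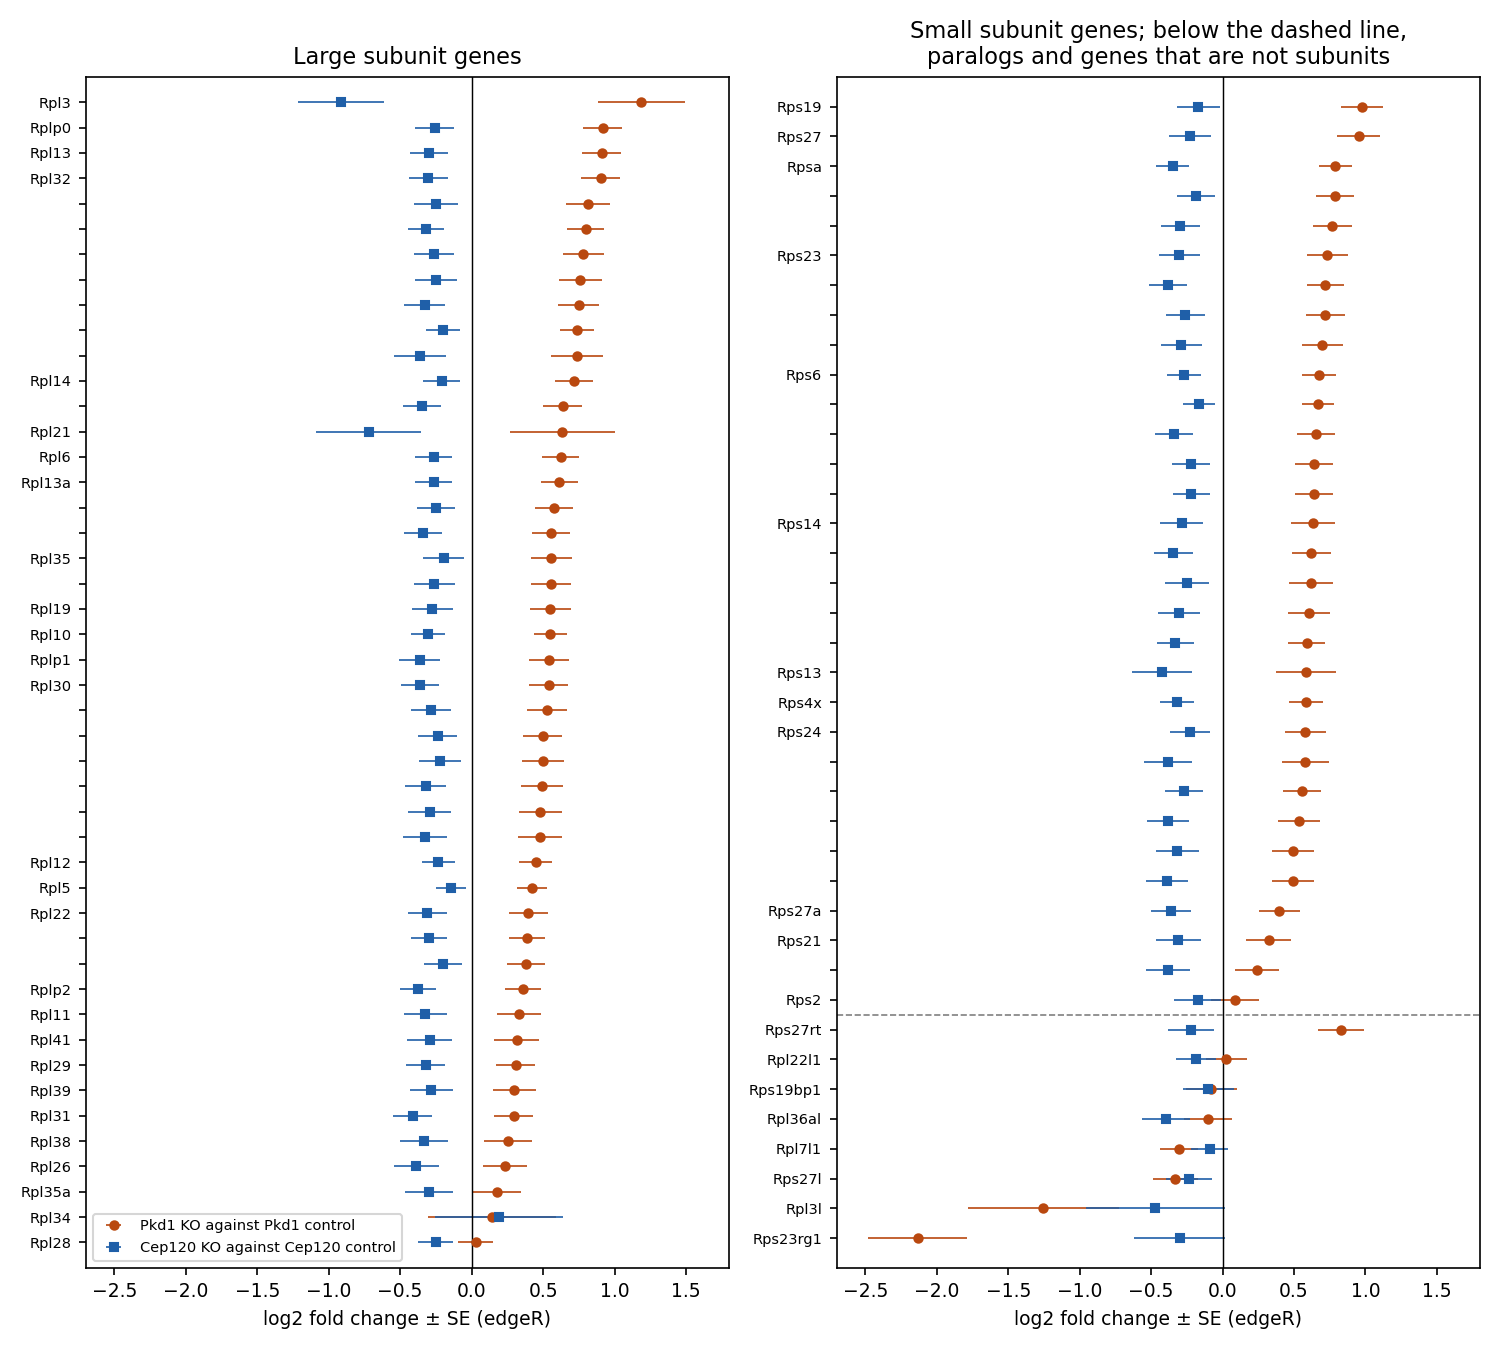
Fold change of each of the 85 genes, with labels on those named in the text. The x axis is the log2 fold change with its SE from edgeR, circles for Pkd1 KO against its controls and squares for Cep120 KO against its controls, and genes are ordered by the Pkd1 value. All circles of subunit genes are above 0 and all squares but that of Rpl34 are below it, and Rpl3, Rpl21 and Rpl34 have the widest error bars among subunit genes.

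The largest rises among small subunit genes were those of Rps19 and Rps27. Rps19 (ENSMUSG00000040952), a small subunit protein needed for maturation of its ribosomal RNA and the gene most often mutated in Diamond-Blackfan anaemia, was at 2018, 2145 and 1973 CPM in Pkd1 KO 1 to 3 and at 862, 1277 and 982 in Pkd1 controls 1 to 3. All 3 KO libraries exceeded the highest control, Pkd1 control 2. Rps19 thus rose by 0.98 (log2, SE 0.15, adjusted p = 0.000221 by edgeR). Rps27 (ENSMUSG00000090733), a zinc-finger protein of the small subunit, was at 568, 590 and 507 CPM in Pkd1 KO and 235, 354 and 270 in the controls. It rose by 0.95 on the log2 scale (SE 0.149, adjusted p = 0.000255). In the Cep120 line both genes overlapped between the groups, with log2 fold changes of -0.17 and -0.23.

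Other small subunit genes moved by less. Rpsa (ENSMUSG00000032518), which also occurs as a laminin-binding protein, was at 1123, 1240 and 1059 CPM in Pkd1 KO and 605, 724 and 652 in the controls, a rise of 0.79 on the log2 scale (SE 0.117, adjusted p = 0.000164). Rps6 (ENSMUSG00000028495), the subunit that S6 kinases phosphorylate, was at 682, 707 and 687 CPM against 411, 506 and 384, a rise of 0.67 (SE 0.118, adjusted p = 0.00058). In neither gene did the groups overlap. Rps14, Rps4x and Rps24 rose by 0.63, 0.58 and 0.58. Rps27a (ENSMUSG00000020460), which is made as a fusion with ubiquitin, was at 377, 406 and 366 CPM against 261, 355 and 256, and rose by 0.40 (SE 0.141, adjusted p = 0.0362). Its call was lost in 15 of 26 alternative settings. Rps2 and Rps21 were among the small subunit genes that did not pass, with log2 fold changes of 0.09 and 0.32.

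In the large subunit the P stalk shows how members of 1 structure differed. Rplp0, Rplp1 and Rplp2 form the stalk that recruits elongation factors. Rplp0 (ENSMUSG00000067274) was at 2569, 2859 and 2344 CPM in Pkd1 KO and 1190, 1563 and 1362 in the controls, and rose by 0.92 (SE 0.136, adjusted p = 0.000168). Rplp1 was at 702, 753 and 668 CPM against 402, 572 and 483, and rose by 0.54 (SE 0.142, adjusted p = 0.00777). Rplp2 was at 499, 495 and 465 CPM against 360, 433 and 345, and rose by 0.36 (SE 0.125, adjusted p = 0.0343). In each of the 3 genes all KO libraries were above all controls. The call of Rplp2 was lost in 15 of 26 alternative settings. Whether the 3 rises differ from one another was not tested.

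Rpl13 (ENSMUSG00000000740) and Rpl32 (ENSMUSG00000057841), both structural proteins of the large subunit, rose by 0.91 and 0.90 (SE 0.135 and 0.138, adjusted p = 0.00017 and 0.000216). Rpl13 was at 1518, 1733 and 1554 CPM in Pkd1 KO and 780, 999 and 778 in the controls. Rpl5 and Rpl11, which with the smallest ribosomal RNA form a particle that can bind Mdm2 and so stabilise p53, lay lower. Rpl5 (ENSMUSG00000058558) was at 171, 188 and 170 CPM against 128, 146 and 122, and rose by 0.42 (SE 0.105, adjusted p = 0.00589). Rpl11 (ENSMUSG00000059291) was at 340, 359 and 311 CPM against 239, 337 and 227, with Pkd1 control 2 inside the KO range, and its log2 fold change of 0.33 did not pass (SE 0.152, adjusted p = 0.0911). Rpl10, the subunit whose joining completes the large subunit, rose by 0.55 (SE 0.118, adjusted p = 0.00227).

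The 11 large subunit genes that did not pass had log2 fold changes from 0.03 to 0.63. Rpl28 had the lowest, with 127, 134 and 116 CPM in Pkd1 KO and 117, 142 and 110 in the controls, so that the groups overlapped (SE 0.123, adjusted p = 0.861). Rpl38, known for its effect on translation of Hox mRNAs, was at 248, 254 and 239 CPM against 178, 266 and 178 (log2 fold change 0.25, SE 0.168, adjusted p = 0.237). Rpl39, a short protein at the exit tunnel, was at 183, 184 and 181 CPM against 123, 180 and 142 (0.30, adjusted p = 0.117). Rpl41, a peptide of very few residues, had 0.32 (adjusted p = 0.122). In each of these Pkd1 control 2 was the highest control. The others were Rpl21, Rpl26, Rpl29, Rpl31, Rpl34 and Rpl35a.

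Levels between genes can be compared on the TPM scale only. Mean TPM over the 12 libraries was 782 at the median of the 77 subunit genes and ran from 103 (Rpl12) to 3489 (Rpl41), with Rpl32 at 3315 and Rps14 at 3252. Rpl41 ranged over libraries from 2780 to 4688 TPM and Rps14 from 2417 to 5159, so their order is within the spread. Below the subunit genes lay Rpl3l at 0.475 TPM, Rps23rg1 at 4.89, Rps19bp1 at 28.2 and Rpl7l1 at 89.6. Across the 77 subunit genes the Spearman correlation of mean TPM with the Pkd1 log2 fold change was 0.30, a description over genes that share libraries.

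Subunit genes moved from library to library as a block. The SD over 12 libraries of a gene's log2 CPM had a median of 0.382, and of 0.092 once each library's median over the subunit genes was taken off. Rpl19 and Rpl6 lay nearest the common course (0.033 each), and Rpl13a (0.04) was also close to it. The genes farthest from it were Rpl34 (0.74), Rpl21 (0.547) and Rpl3 (0.52), then Rpl28 (0.281) and Rps13 (0.256). All but Rpl3 of these genes were named after their values were seen. The Pkd1 log2 fold change had an SD of 0.214 over the 77 genes and the Cep120 one of 0.12.

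**Figure D3:**
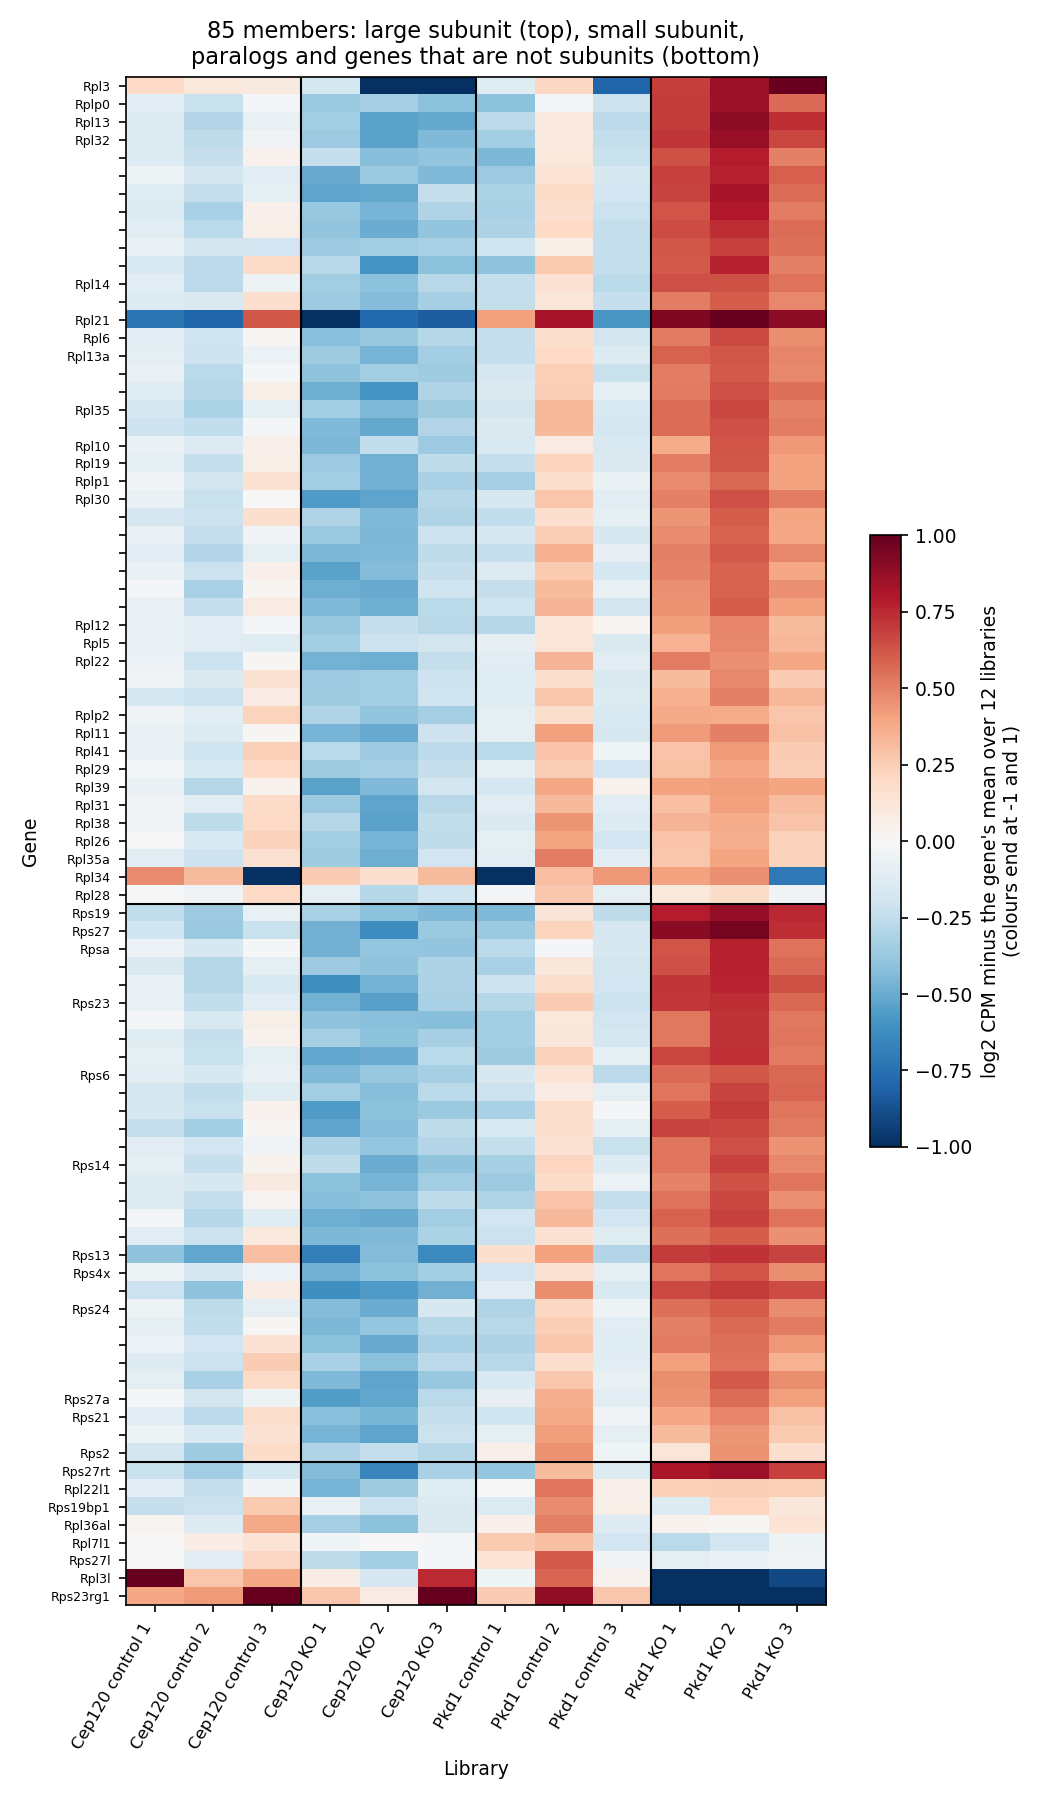
Each member in each library. Colours give log2 CPM minus the gene's mean over 12 libraries, with the scale ending at -1 and 1, rows are genes by class and then by the Pkd1 fold change, with labels on those named in the text, and columns are libraries by group. Most subunit rows share 1 pattern, high in the 3 Pkd1 KO columns and low in the 3 Cep120 KO columns. Rpl34 breaks it, and Rpl3 and Rpl21 follow it with wider differences between libraries of a group.

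For Rpl3 the break lay between the gene and its pseudogene. Rpl3 (ENSMUSG00000060036), a large subunit protein near the catalytic centre, had the largest fold change of all subunit genes in both lines. It was at 1253, 1410 and 2013 CPM in Pkd1 KO, 714, 895 and 445 in Pkd1 controls, 686, 327 and 344 in Cep120 KO, and 890, 835 and 828 in Cep120 controls. Counts on its 2 named pseudogenes, nearly all on Rpl3-ps1, were as many, at 1127, 1236 and 498 CPM in Pkd1 KO, 630, 781 and 892 in Pkd1 controls, 661, 931 and 917 in Cep120 KO and 765, 732 and 776 in Cep120 controls. Cep120 KO 2 and 3 and Pkd1 control 3, low for Rpl3 within their groups, were high for the pseudogene, and Pkd1 KO 3 was the reverse. The pseudogene's share of the pair ran from 19.8% to 74%. The sum of both was 2517 ± 134 CPM (SD, n = 3) in Pkd1 KO, 1452 ± 195 in Pkd1 controls, 1287 ± 50.5 in Cep120 KO and 1608 ± 45 in Cep120 controls. The within-group SD of log2 CPM was 0.433 for Rpl3 alone and 0.107 for the sum. The Pkd1 log2 fold change was 1.19 for the gene alone (SE 0.303, adjusted p = 0.0068) and 0.79 for the sum (SE 0.125, adjusted p = 0.000264), and the Cep120 one was -0.91 alone (SE 0.302) and -0.32 for the sum (SE 0.125, adjusted p = 0.759).

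Rpl34 (ENSMUSG00000062006), a large subunit protein, showed this with Rpl34-ps1 in some of the libraries only. It was at 97.5, 124 and 82.5 CPM in Cep120 control 3, Pkd1 KO 3 and Pkd1 control 1, and at 229 to 284 in the other 9 libraries. Its pseudogenes were at 6.27 to 7.85 CPM in the 6 libraries with more genes detected, and at 107 to 212 in the other 6. They were highest (148 to 212 CPM) in the libraries low for Rpl34. In Pkd1 KO 1 and 2 and Pkd1 control 2 they were at 107 to 133 CPM, and Rpl34 was not low there. The sum was 387, 415 and 337 CPM in Pkd1 KO and 230, 359 and 284 in Pkd1 controls. Its log2 fold change was 0.38 (SE 0.153, adjusted p = 0.0589), against 0.14 for the gene alone. Rps13, at 279, 284 and 275 CPM in Pkd1 KO and 192, 228 and 140 in Pkd1 controls, had 44.8% to 54.1% of the pair's counts on its pseudogenes in 5 of the libraries with more genes detected (37.4% in Cep120 KO 2) and 23.3% to 25.5% in the other 6. Rpl21 also followed the number of genes detected, at 109 to 146 CPM in the 6 libraries with more and 291 to 456 in the 6 with fewer, but its named pseudogenes held only 1.64% to 4.02% of the sum, and its values were 418, 456 and 408 CPM in Pkd1 KO against 291, 388 and 146. Its log2 fold change of 0.63 did not pass (SE 0.366, adjusted p = 0.173).

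**Figure D4:**
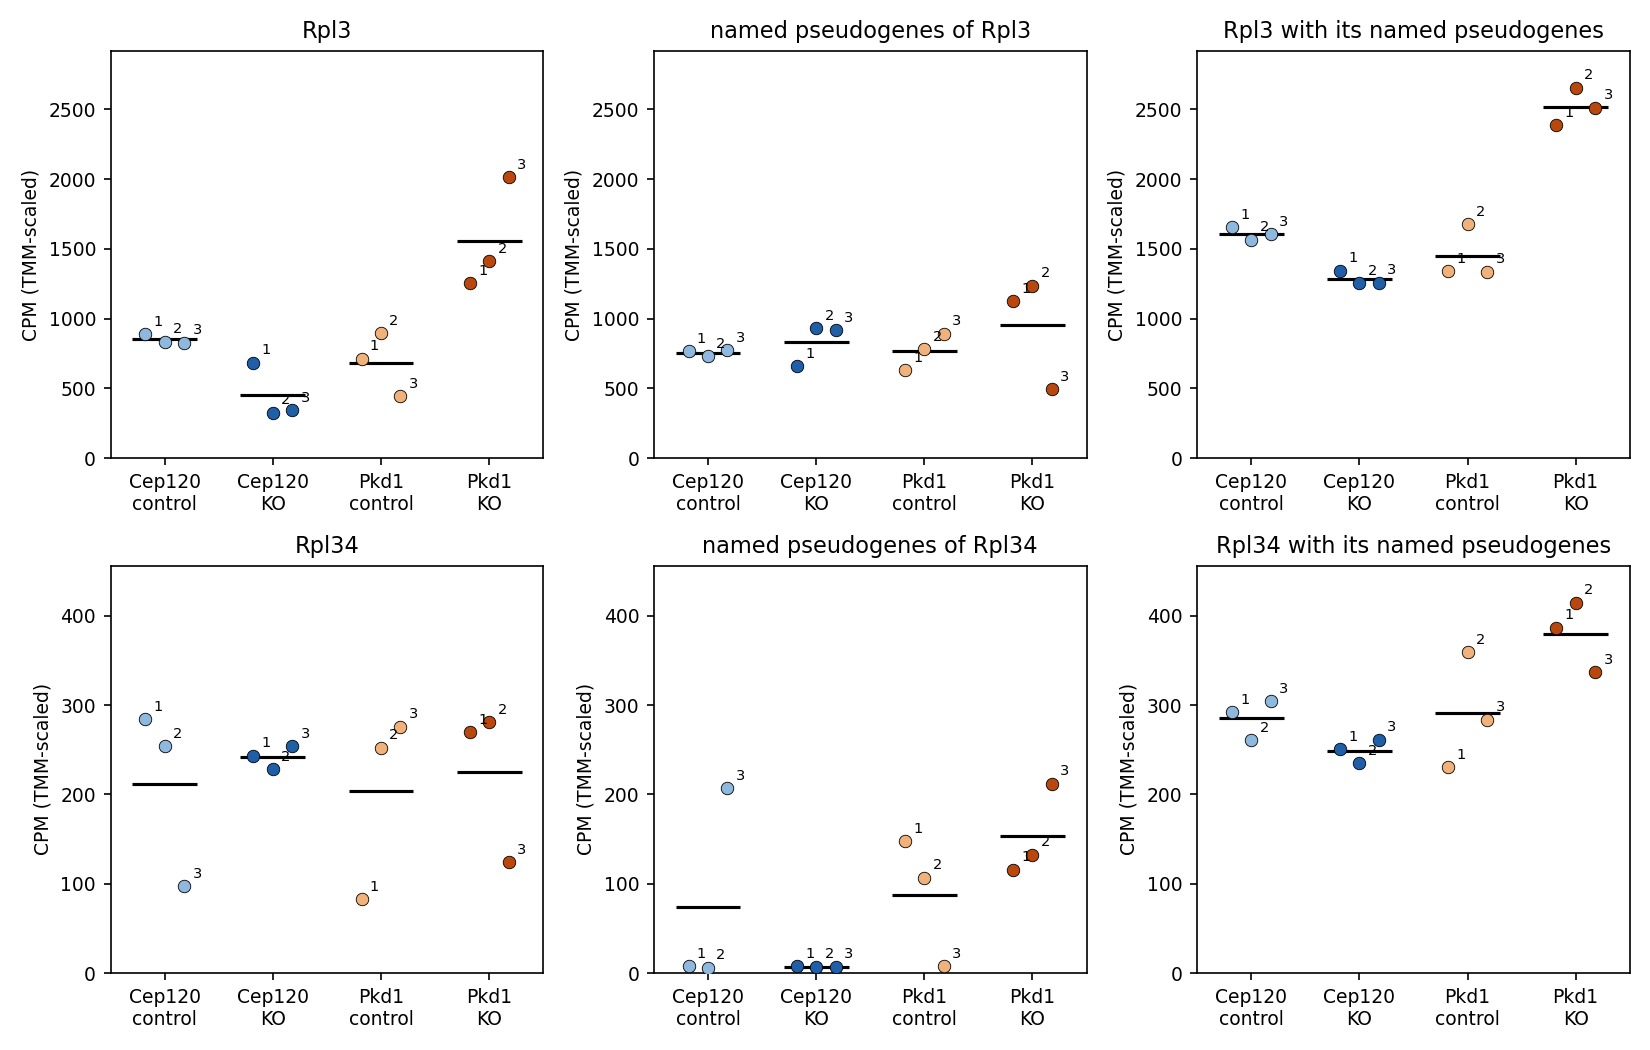
Rpl3 (top) and Rpl34 (bottom) with their named pseudogenes. Panels from left to right give TMM-scaled CPM of the gene, of its named pseudogenes and of the sum, points are libraries with their replicate number and lines are group means. The sum of Rpl3 is 2386 to 2654 CPM in Pkd1 KO and 1336 to 1676 in Pkd1 controls, so these groups do not overlap.

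Named pseudogenes held more than 10% of the joint counts in at least 1 library for 25 members, among them Rpl10 (57.1% to 62%), Rps6 (45.1% to 52.4%) and Rpl28 (54.4% to 59.7%). Pseudogene counts were also added to each member, a setting chosen after these values were seen. In Pkd1 KO 63 of the 65 calls of the main fit were then kept, with a median of 0.56. In Cep120 KO 0 members were called, with a median of -0.29. Rps2 moved from 0.09 to 0.30 and still did not pass (adjusted p = 0.105). The sources used here do not say how reads matching both a gene and a copy were assigned, so the level of any of these 25 genes alone is uncertain.

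The paralogs did not follow the subunit genes, apart from 1. Rps27rt (ENSMUSG00000050621), a retrocopy of Rps27, was at 211, 216 and 192 CPM in Pkd1 KO and 91.5, 148 and 109 in the controls, and rose by 0.83 (SE 0.16, adjusted p = 0.00117), but reads of the pair may be split between them. Rps27l (ENSMUSG00000036781), a paralog known as a p53 target, was at 145, 148 and 151 CPM against 170, 236 and 151, below all controls by a narrow margin, and its log2 fold change of -0.33 did not pass (SE 0.159, adjusted p = 0.109). Rpl22l1, which can replace Rpl22, had 0.03, Rpl36al -0.10 and Rpl7l1, a ribosome assembly factor in spite of its name, -0.31, and none passed. Rpl7l1 passed, as lower, in 6 of 26 alternative settings (adjusted p down to 0.00319, without Pkd1 control 3) and Rps27l in 5 (down to 0.0192, with a term for genes detected). Rps19bp1, a binding partner of Rps19 and of Sirt1, had -0.08. Rpl3l, the form of striated muscle, was at 0.169 to 0.215 CPM in Pkd1 KO and 0.391 to 0.603 in the controls, and its log2 fold change of -1.25 did not pass (SE 0.528, adjusted p = 0.0698).

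Rps23rg1 (ENSMUSG00000065952), a retroposed copy of Rps23 that encodes a membrane protein rather than a ribosome part, fell. It was at 0.982, 1.26 and 1.26 CPM in Pkd1 KO 1 to 3, 4.33, 6.73 and 4.38 in Pkd1 controls, 4.38, 3.84 and 7.24 in Cep120 KO and 4.74, 4.88 and 9.41 in Cep120 controls. Every Pkd1 KO library was below all other libraries. The log2 fold change was -2.13 (SE 0.346, adjusted p = 0.000326), while Rps23 itself rose.

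Transcript counts showed differences within genes that the gene totals do not give. They came from a deposited transcript table that holds the smaller part of the gene's counts for 24 members, and the transcripts named here were chosen after their values were seen. Over all 40007 transcripts tested edgeR called 17.7% in Pkd1 KO and 0.0125% in Cep120 KO. Shares within the gene were compared for 138 transcripts of members. KO and control shares did not overlap for 38 of them in the Pkd1 line and for 25 in the Cep120 line. Shares without overlap were thus common in both lines.

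Rpl22l1-204, annotated as a target of nonsense-mediated decay, made 20.8%, 23.3% and 12.9% of the counts of Rpl22l1 in Pkd1 KO and 4.37%, 4.97% and 6.47% in Pkd1 controls, against 3.53% to 7.91% in the 6 Cep120-line libraries. The gene total was 85.7, 86 and 85.6 CPM in Pkd1 KO and 72.8, 105 and 75 in the controls. The share differed by 13.7 percentage points (exact permutation p = 0.1, two-sided, the smallest that 3 against 3 allows), and the transcript's own count rose by 1.92 (log2, SE 0.3, adjusted p = 0.00163 by edgeR). Rps27a-201, a protein-coding form, went the other way from its gene. It made 9.85%, 11% and 11.8% of Rps27a counts in Pkd1 KO and 23.2%, 19.2% and 23.2% in Pkd1 controls, and 18.6% to 26% in the Cep120 line. Its own count fell by 0.55 on the log2 scale (SE 0.123, adjusted p = 0.0107) while that of the gene rose.

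**Figure D5:**
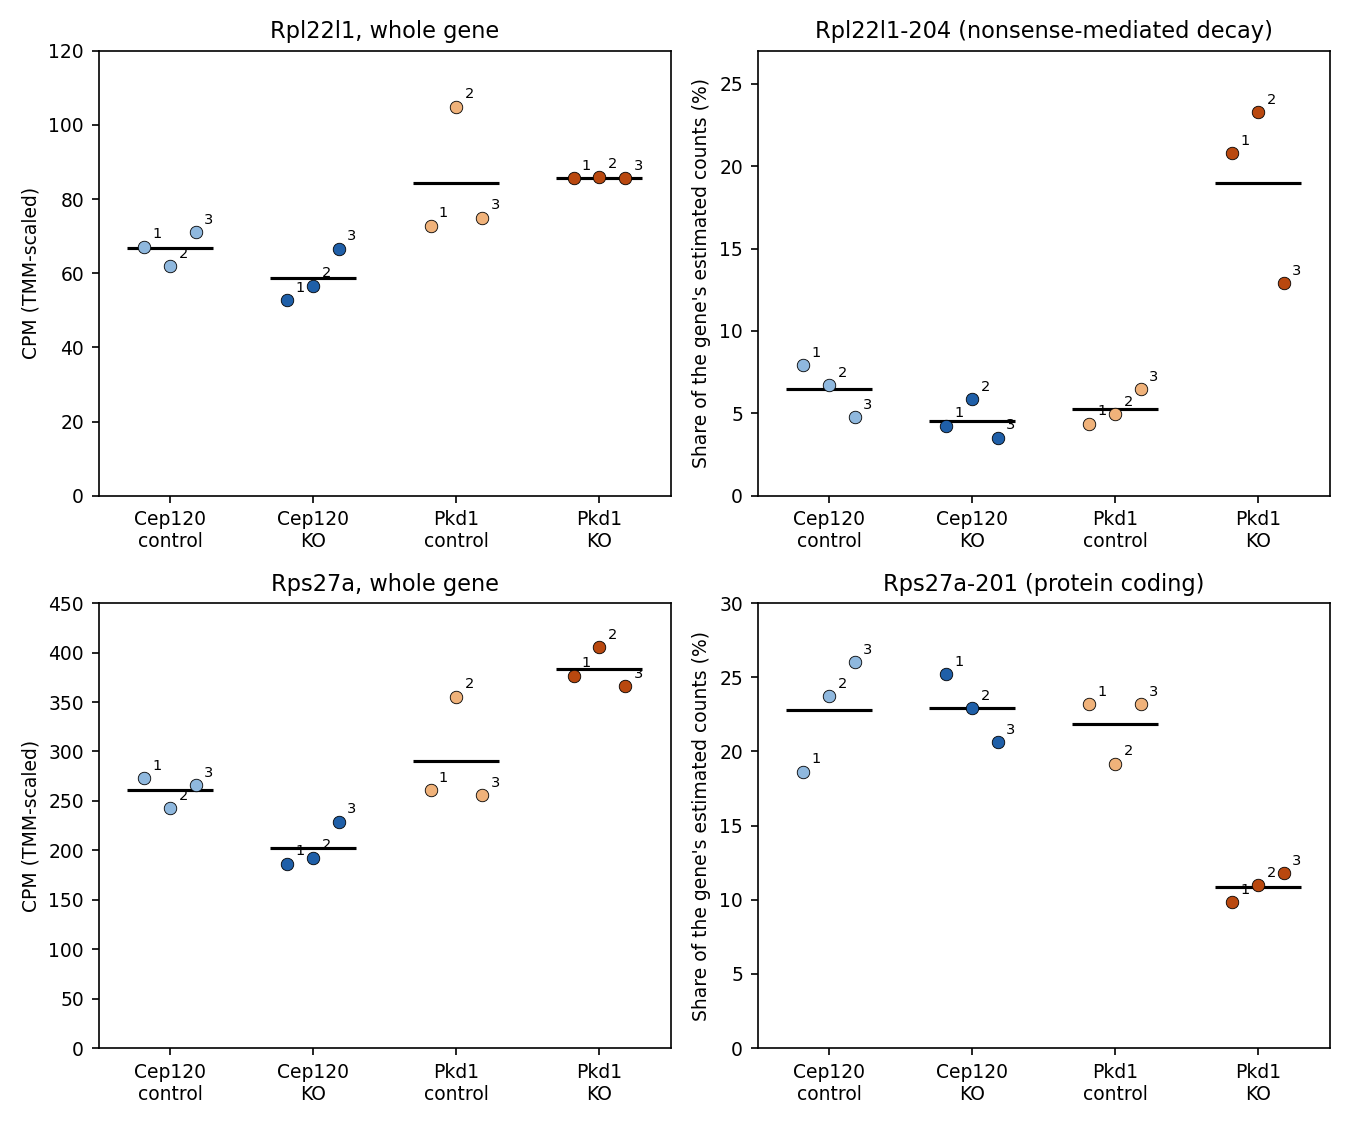
Gene total (left, TMM-scaled CPM) and share of 1 transcript in the gene's estimated counts (right, %) for Rpl22l1 and Rps27a. Points are libraries with their replicate number and lines are group means. The Rpl22l1-204 share is 12.9% to 23.3% in Pkd1 KO and at most 7.91% elsewhere, and the Rps27a-201 share is 9.85% to 11.8% in Pkd1 KO and at least 18.6% elsewhere.

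Rpl30 shifted between forms as well. Rpl30-201 made 19.2%, 16.9% and 18.9% of the gene's counts in Pkd1 KO and 26.5%, 27.3% and 29.4% in Pkd1 controls, with no change of its own count (log2 fold change -0.02), and Rpl30-206 made 20.7%, 31.1% and 27.9% against 18.5%, 15.3% and 20.3%. In the Pkd1 line the exact permutation p was 0.1 for both forms, the smallest that 3 against 3 allows. In the Cep120 line it was 0.1 for Rpl30-206 and 0.4 for Rpl30-201. By this test Rpl30-206 did not set the Pkd1 line apart. Rps24, whose last exons are spliced differently between tissues, differed by less. Rps24-201 made 46.3% to 49.2% in Pkd1 KO and 40.5% to 44.8% in Pkd1 controls, and 38.3% to 47.6% in the Cep120 line. Of the few counts of Rps23rg1, Rps23rg1-202 held 55.5% to 76% in Pkd1 controls and 0% to 27.6% in Pkd1 KO, and Rps23rg1-201 3.48% to 28.9% and 62% to 89.8%. Forms with a retained intron made 2.29% to 2.46% of all member counts in Cep120 KO, 2% to 2.08% in Cep120 controls, 1.92% to 2.05% in Pkd1 KO and 1.93% to 2.4% in Pkd1 controls.

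In Cep120 KO ribosomal protein genes were slightly lower, and none passed the test. edgeR called 0 members at the adjusted threshold, as did DESeq2 and voom, while 30 of the 85 had an unadjusted p under 0.05, all lower, against 2.76% of all genes lower at that p. The log2 fold change was below 0 for 84 of the 85, as for 48.4% of all genes, with a median of -0.30 against 0.01 for all genes. This median includes TMM factors of 1.019 to 1.097 in Cep120 KO and 0.919 to 0.982 in Cep120 controls. Without them the members' mean share differed by less, at 2.96% against 3.29% of counts and 6.58% against 6.97% of TPM. KO and control libraries did not overlap for 60 members, all lower, against 7.88% of all genes lower. The members share 6 libraries, so these counts describe 1 shift seen in many genes. Cep120 KO 1 and 2, without Xist, had a mean log2 deviation over the members of -0.383 and -0.43. Cep120 KO 3, with Xist, was at -0.277, and Cep120 controls 1 to 3, all with Xist, were at -0.075, -0.208 and 0.057. Absence of Xist and the KO label are thus partly mixed here.

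Rpsa was at 522, 556 and 554 CPM in Cep120 KO and 701, 651 and 724 in Cep120 controls (log2 fold change -0.35, SE 0.116, unadjusted p = 0.0105, adjusted p = 0.757). Rplp2 was at 312, 291 and 305 CPM against 373, 354 and 448 (-0.37, SE 0.125). Rps6 was at 340, 354 and 366 CPM against 429, 412 and 437 (-0.27, SE 0.118). In each of these the KO libraries lay below all controls. Rpl34 alone was above 0 (0.19, SE 0.447), and with its pseudogenes added it was at -0.20. Non-member genes with a median transcript length under 1000 bases had a median log2 fold change of -0.07 in Cep120 KO. Longer ones had 0.06 (-0.02 and -0.06 in Pkd1 KO), while the members' median length was 632. Summed markers of dividing cells were at 473 to 568 CPM in Cep120 KO and 575 to 634 in Cep120 controls, adipose markers at 158 to 587 and 561 to 719, and kidney-defining markers at 6250 to 7660 and 6330 to 7650. The part of length and of these markers in the Cep120 result was not tested.

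The change in Pkd1 KO was above that in Cep120 KO. The difference of the 2 effects, tested in 1 fit, was called for 68 members with Pkd1 above Cep120 and for 1, Rps23rg1, below it, against 28.1% of all genes called (13.9% higher and 14.2% lower). The median difference was 0.86 on the log2 scale, against -0.06 for all genes. Among members that passed, Rpl3 (2.10, SE 0.428), Rpl13 (1.21, SE 0.19), Rpl32 (1.21, SE 0.195) and Rps27 (1.18, SE 0.21) had the largest, and that of Rpl3 was 1.12 (SE 0.177) with its pseudogenes. The 10 subunit genes not called included Rpl21 (1.36, SE 0.518, adjusted p = 0.0673), Rpl28, Rps2 and Rpl38. The call of Rpl11 (0.66) was lost in 13 of 25 alternative settings, with adjusted p up to 0.101, and that of Rpl5 (0.56) in 2. Pkd1 controls against Cep120 controls gave 0 calls by edgeR among members and among all genes, with 1 member (Rpl22l1) at an unadjusted p under 0.05, beside 4.19% of all genes, and a median of 0.06.

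Other ribosome parts and translation factors were set beside the members from lists of textbook genes. Fau, the precursor of the small subunit protein Rps30, was at 302, 330 and 301 CPM in Pkd1 KO and 181, 271 and 213 in Pkd1 controls and rose by 0.49 (SE 0.141, adjusted p = 0.0136). Rack1, a scaffold on the small subunit, rose by 0.67 (SE 0.123, adjusted p = 0.000767). Of 27 elongation factors and other TOP mRNAs 15 rose and 1 fell, with a median of 0.43, beside 22.1% higher and 22.4% lower of all genes. The genes named from this list and from the translation, assembly and regulator lists below had the smallest edgeR p of their list in Pkd1 KO. Eef2, the factor that moves the ribosome along the mRNA, was at 2049, 2103 and 1782 CPM against 1048, 981 and 994, a rise of 0.97 (SE 0.119, adjusted p = 3.905e-05). Eif4b, a helper of the cap-bound helicase, rose by 0.76, while Eif4a2, a form of that helicase, fell by 0.81.

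Of 26 initiation factors 7 rose and none fell in Pkd1 KO (median 0.20), with Eif1a at 0.88, Eif2b2 at 0.57 and Eif3d at 0.50. Of 42 genes of ribosome assembly and the nucleolus 14 rose and 5 fell (median 0.10), with Rrp1b, a nucleolar processing factor, at 1.31, Lsg1, a GTPase of late large subunit maturation, at 0.64 and Pes1 at 0.61. Of 17 genes of ribosomal RNA synthesis 5 rose and 2 fell (median 0.24), with Taf1c at 0.81, Rrn3, an initiation factor of RNA polymerase I, at 0.44 and Polr2k at -0.69. The shares called higher in the initiation list (7 of 26) and the polymerase list (5 of 17) are near the 22.1% of all genes. In Cep120 KO edgeR called 0 genes in each of these lists, and their medians were -0.31 for the parts outside the name rule, -0.21 for elongation, -0.17 for initiation, -0.12 for assembly and -0.14 for ribosomal RNA synthesis.

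Regulators named in textbooks for these genes were also measured. Of 26 genes of mTORC1 and TOP control 5 rose and 4 fell in Pkd1 KO, with a median of -0.01, shares no higher than the 22.1% and 22.4% of all genes. Eif4ebp1, a repressor of cap-dependent translation that mTORC1 inactivates, was at 144, 140 and 114 CPM against 38.1, 52.9 and 46.6 and rose by 1.53 (SE 0.141, adjusted p = 4.981e-06). Sesn1, a leucine sensor that inhibits mTORC1, rose by 0.79, and Rragd, a GTPase that brings mTORC1 to the lysosome, fell by 1.06. Of 13 Myc family genes 6 rose and 2 fell. Myc, a transcription factor that drives ribosome genes, was at 46, 42.1 and 66.5 CPM against 13, 13.7 and 20 and rose by 1.73 (SE 0.24, adjusted p = 0.000105), Mlxip rose by 0.88 and Mxd3, a repressor of the family, fell by 2.58. In Cep120 KO their log2 fold changes were 0.09 for Myc, -0.23 for Eif4ebp1 and 0.10 for Mxd3, and none passed.

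Marker RNA of other cell types and mitochondrial RNA differed between the same Pkd1 libraries. All 10 macrophage markers rose in Pkd1 KO, with a summed level of 1370 to 1990 CPM against 149 to 508 in Pkd1 controls, and 8 of 10 fibroblast and myofibroblast markers rose (6440 to 10500 against 1880 to 3110 CPM). Of 10 kidney-defining markers 8 fell and 1 rose (1690 to 3160 against 5260 to 7700), all 8 red blood cell markers measured fell (502 to 1470 against 6020 to 10500), 11 of 12 markers of dividing cells fell (189 to 278 against 480 to 553), and 7 of 10 T and B cell markers fell and 1 rose (12.1 to 13.9 against 16.1 to 18.4). Of 8 adipose markers 1 rose and 1 fell, of 3 skeletal muscle markers tested 1 rose, and Myh1, Myh2 and Myh4 were at 0 in both Pkd1 groups. Mitochondrially encoded RNA was 3.14% to 3.47% of counts in Pkd1 KO and 6.58% to 9.14% in Pkd1 controls, and without it the members' share was still 5.8% ± 0.182 against 3.66% ± 0.394. In the Cep120 line edgeR called 0 markers, and the summed macrophage level was 220 to 410 CPM in KO and 168 to 433 in controls. The part of cell composition in the ribosomal protein result was not tested.

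The Pkd1 result depended on the treatment of Xist and on single libraries. With Xist presence as a term, which is estimated from Cep120 KO alone, 13 members were called higher and 0 lower, beside 10.1% of all genes, with a median of 0.69. Rpsa (0.83, adjusted p = 0.035), Rps27 and Rpl32 were among the 13. Among the 5 Pkd1 libraries with fewer genes detected, that is without Pkd1 control 3, 52 rose and 3 fell with a median of 0.47. That setting kept 53 of the 65 calls of the main fit, in which 44.4% of all genes were called. Leaving out Pkd1 control 2 kept all 65 calls and gave a median of 0.72. The members in that library were on average 0.26 above their mean on the log2 scale, against -0.20 and -0.14 in Pkd1 controls 1 and 3. These levels include the TMM factor, 0.863 for Pkd1 control 2, the lowest of all libraries, against 0.965 and 1.074. Without it the members' share of counts was 3.64% against 2.999% and 3.48%. Their share of TPM was 7.33% against 6.49% and 7.75%. In the Cep120 line the median was -0.22 among the 5 libraries with more genes detected, that is without Cep120 control 3.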

How the data were processed

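Whole-kidney RNA was ground in liquid nitrogen, extracted with Trizol and made into cDNA with a SMARTer Ultra Low kit, per the labels' protocols. The submitters' processing notes name STAR 2.5.1a, featureCounts 1.4.6-p5, Salmon 0.8.2 and the build mm9, with no roles, and neither strand nor the handling of reads with several matches is given in the sources used here. The deposited gene table held estimated counts that are not whole for 21.6% of genes, and these were rounded. Of its 55774 lines 287 repeated an Ensembl ID and were left out. The deposited TPM values, scaled by the authors for gene length and library, served for levels between genes, and the authors' deposited log2 CPM values for 1 alternative. The deposited transcript estimated counts served for shares within a gene.

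CPM were computed with TMM factors in edgeR 4.0.16 (R 4.3.3), genes were kept by filterByExpr, and all 12 libraries entered 1 quasi-likelihood fit with 4 group means. The 2 KO effects, their difference and the controls were contrasts of it, called at a Benjamini-Hochberg adjusted p of 0.05 over 19890 genes, and the scripts were tested on simulated data. Named genes were those with the 4 largest rises and falls among called members whose groups did not overlap in each comparison, the P stalk, Rpl5, Rpl11, the paralogs, and Rps6, Rpsa, Rps27a, Rps24, Rpl10, Rpl38, Rpl39 and Rps4x. Other members with values, pseudogenes, transcripts and companion genes were named after their values were seen. The members and lists were chosen with earlier results of these data known. Alternatives used limma 3.58.1 and DESeq2 1.42.0, other scalings, filters, terms and left-out libraries. Some genes are not reported here by name, but they stay in all counts and medians.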

Additional observations from a re-analysis of the deposited data

Results flagged for a closer look

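Ribosomal protein genes were singled out where the effect of Pkd1 KO differed from that of Cep120 KO by the contrast of both effects in 1 edgeR fit (adjusted p of 0.05 over all genes). The effect was higher in the Pkd1 line for 68 members and lower for 1, against 13.9% and 14.2% of all genes. Among named members of the large subunit the log2 differences of effects were 2.1 for Rpl3, 1.21 for Rpl13 and for Rpl32, 1.17 for Rplp0, 0.91 for Rplp1, 0.73 for Rplp2, 0.86 for Rpl10, 0.66 for Rpl11 and 0.56 for Rpl5. The calls of Rpl11 and Rpl5 were lost in 13 and 2 of 25 alternative settings. Among those of the small subunit they were 1.18 for Rps27, 1.14 for Rps19 and for Rpsa, 0.94 for Rps6, 0.92 for Rps14, 0.9 for Rps4x, 0.81 for Rps24 and 0.76 for Rps27a. The retrocopies went opposite ways, at 1.05 for Rps27rt and -1.83 for Rps23rg1. The difference of Rpl3 was 1.12 once counts of its pseudogenes were added.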

How the results depend on the processing

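In Pkd1 KO 13 of 65 calls kept call and direction in all 26 alternative settings, and in the difference 59 of 69 in all 25 that could give it. Members above 0 in Pkd1 KO numbered 76 to 81 and members below 0 in Cep120 KO 82 to 85 across settings. Counts of calls moved by more than 1.5 times in 3 cases: 13 in Pkd1 KO with an Xist term, 2 in Cep120 KO with no filter on low counts (Rpl3 and Rpl21), and 2 between the controls without both replicate 3 controls (Rpl21 and Rps13). The Cep120 share of the library was -0.155 (log2 KO over control) by counts and -0.083 by deposited TPM. Leaving out 1 library at a time kept 51 to 65 of the 65 Pkd1 calls. The Pkd1 median then ran from 0.475 (without Pkd1 control 3) to 0.718 (without Pkd1 control 2). Between the controls the median ran from -0.096 (without Pkd1 control 2) to 0.148. The cause was not tested. Uncalled Pkd1 values that changed sign were those of Rpl22l1 (-0.005 with RLE scaling and with DESeq2, -0.058 with upper quartile scaling, -0.023 with the 5 CPM filter, -0.01 with the compared libraries only, -0.033 with a detected genes term, -0.052 without both replicate 3 controls, -0.067 and -0.075 without Pkd1 control 1 and 3; up to 0.218 without Pkd1 control 2), Rpl36al (0.013 on deposited log2 CPM, 0.124 with an Xist term, and -0.255 to 0.104 with 1 library left out), Rps19bp1 (0.025 on deposited log2 CPM, -0.204 to 0.114 with 1 library left out) and Rpl34 (-0.021, -0.058 and -0.23 without Pkd1 KO 1, Pkd1 KO 2 and Pkd1 control 1; up to 0.422 without Pkd1 KO 3). With the replicate number as a block 60 of the 65 Pkd1 calls and 64 of the 69 difference calls were kept. In that setting 0 members were called in Cep120 KO and between the controls. Same-numbered libraries correlated in their deviations by -0.136 to 0.178. With 3 libraries in each group these values cannot decide whether the numbers pair them, and the main fit did not use them. Depth limits Rpl3l and Rps23rg1 most.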
